A study of Mus musculus with 141 samples.

Results

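Expression differences between inbred strains were examined within one organ, the lung of the Collaborative Cross (CC), a panel of recombinant inbred mouse strains descended from a shared set of founder strains. All 47 lung RNA-seq libraries of the 141 libraries were taken by their tissue label, and of 24423 genes listed in each, the 11872 above 1 CPM (counts scaled to a common library size) in 24 or more of the 47 were tested. Each library came from 1 male mouse of 8 to 12 weeks of age, with 1 mouse for each of 47 strains, and the same mice gave the kidney and liver libraries used below for comparison. All mice ate the same wafer diet, spent 6 h a day on weekdays for 2 weeks in chambers supplied with clear air, and were anesthetized with nembutal before whole lungs were excised and frozen. Total RNA with a minimum integrity value was depleted of ribosomal RNA and read as single-end sequences of 50 bases. Because every strain was represented by 1 mouse, a difference between strains cannot be told apart from a difference between individual mice, dissections or libraries, and the labels give no sequencing batch, so no within-batch value was computed. In bulk tissue, fewer cells of a type and less RNA per cell cannot be told apart either.

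Whole lung holds alveolar epithelium, where type 2 cells make surfactant and type 1 cells line the gas exchange surface, together with capillary endothelium, conducting airways with secretory and ciliated cells, resident macrophages, lymphocytes and matrix-producing stroma. Cardiac muscle extends along the pulmonary veins of mice, and the trachea, oesophagus, thymus and chest wall lie against the lung. The lung is also a barrier organ in which interferons, acute injury, glucocorticoids and the daily clock are known to change the expression of many genes together. Lists of genes that mark these cells and responses were used to describe which kinds of genes varied between strains.

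Total counts in the lung libraries ranged from 2829104 to 17585682 with a median of 9338124. The ribosomal RNA gene *Rn45s* and *Lars2*, which collects mitochondrial ribosomal sequence, held from 1.02% to 90.5% of a library's counts (median 24.1%) and over 50% in 15 libraries, so scaling used TMM factors, which compare a library with the others over genes of moderate difference, after which the effective library sizes were 1604459 to 27850598. Levels resting on up to 3 counts were read as a floor, which corresponded to between 0.108 and 1.87 CPM, with the highest value in strain CC015, and such floors cover counting error only. The summed level of 10 markers of alveolar type 2 cells was 7809 to 16524 CPM in lung against 735 to 2232 CPM in kidney and 6.19 to 119 CPM in liver, and that of the type 1 markers was 1407 to 2875 CPM against at most 48.0 CPM in either organ. Over 257 genes whose level followed the strain between kidney and liver, 46 of 47 lung libraries were most like the kidney of their own mouse (median Spearman correlation 0.536). The exception was the library labelled CC042, which ranked its own kidney 44th of 47 (rho = -0.133) and was most like the kidney (0.427) and the liver (0.472) of CC036. Among livers, the library labelled CC032 was most like the lung (0.519) and kidney (0.543) of CC012, and the library labelled CC030 ranked its own lung 12th and its own kidney 14th, which bears on the lung and liver comparisons below. Calls within lung were also made without the library labelled CC042, which left 1071 genes of high variability instead of 1067. The library of CC037 was the least like the others, with a median Spearman correlation of 0.918, against a median of 0.957 over all libraries. CC015 was next at 0.923. Its library held the 90.5% share of *Rn45s* and *Lars2*, the smallest effective size and the fewest genes detected (13982). Both strains recur below among the highest or lowest values, and how far library quality set those values was not tested.

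Variability was measured as the coefficient of variation (CV), the SD of the TMM-scaled CPM across the 47 libraries divided by their mean. The CV had a median of 0.253, a 5th percentile of 0.114 and a 95th percentile of 0.749, and 279 genes had a CV above 1. Since the CV falls with mean expression, each gene's CV was divided by the lowess trend at its mean, and this relative CV is the quantity used below. With a relative CV of at least 2, 1067 genes (8.99% of those tested) were called high, and with a relative CV of at most 2/3, 1043 genes (8.79%) were called low. The threshold lay between neighbouring values of 2.00022 and 1.99983. Sampling of counts alone accounted for a median of 16.2% of the variance over all tested genes, 2.15% over the high genes and 43.2% over the low genes. A single library carried the call in 366 of the high genes, whose relative CV was under 2 without their highest library, while 701 stayed at or above 2. CC040 gave the highest value for 172 high genes and CC037 for 150, and CC015 gave the lowest value for 145.

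**Figure D1:**
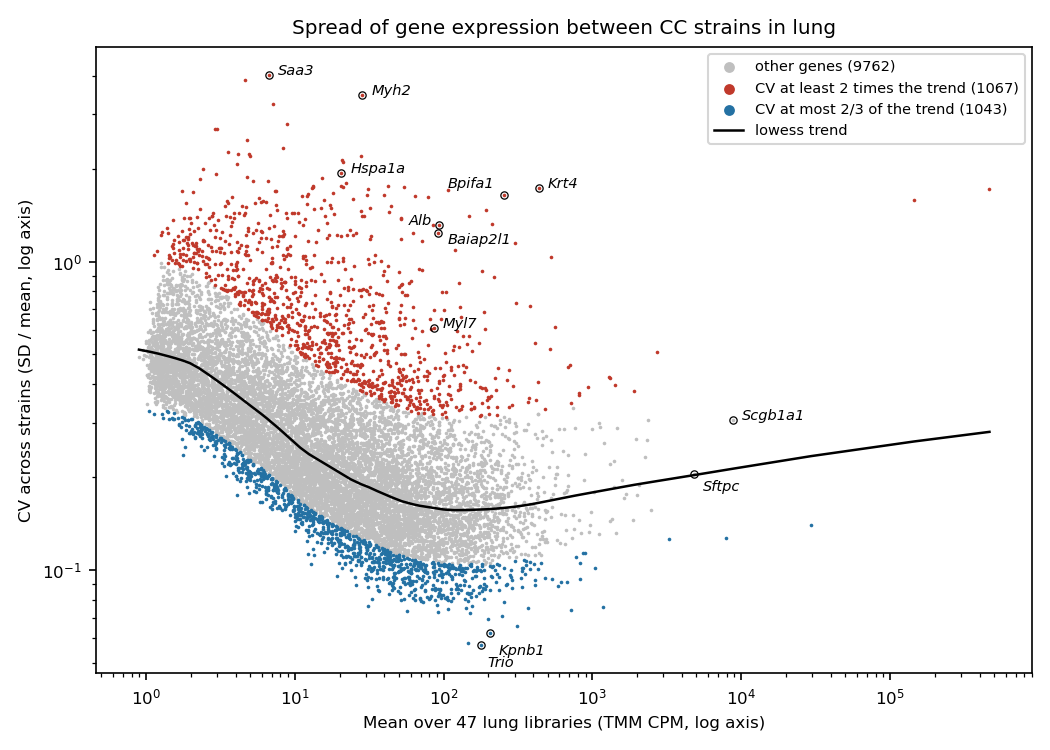
CV across 47 lung libraries (vertical axis, log scale) against mean TMM-scaled CPM (horizontal axis, log scale) for 11872 genes, with 1067 high genes in red, 1043 low genes in blue, the other genes in grey and the lowess trend as a line. *Myh2* and *Saa3* lie farthest above the trend, with relative CVs of 18.3 and 13.1, and *Trio* lies farthest below it at 0.364.

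The 15 genes with the largest relative CVs included genes of skeletal and cardiac muscle, of stratified squamous epithelium, of the interferon and acute phase responses and of airway secretions. The squamous genes were near 0 in some lungs and abundant in others. *Krt4*, a keratin of squamous epithelium, had a lowest value of 0 CPM, a median of 1.69 CPM and a highest value of 2905 CPM in CC059. Its values fell into separate groups, at most 3.24 CPM in 26 libraries and at least 73.1 CPM in 21 libraries (median 803 CPM), with a relative CV of 10.5. The groups were cut from these sorted values, so no library can lie between them, and the gap ran from 3.24 to 73.1 CPM. *Asprv1*, a protease of the upper epidermis, ranged from 0 through a median of 2.27 to 450.3 CPM in CC031 and was divided into the same 21 higher and 26 lower strains. *Rptn*, a protein of the cornified envelope, ranged from 0.436 through 5.65 to 724 CPM, and its 20 highest libraries were the 20 highest for *Krt4*. *Tgm3*, a transglutaminase that crosslinks that envelope, ranged from 0 through 1.51 to 268 CPM, the highest value being in the library labelled CC042. The basal keratins *Krt5* (highest 127 CPM) and *Krt15* (highest 68.2 CPM) were both highest in CC031, and all 3 tested squamous markers of the 10 listed were called high.

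Genes of skeletal muscle varied over a similar range. *Myh2*, the myosin heavy chain of fast oxidative fibres, had the largest relative CV of all genes over 5 CPM on average, 18.3, with a lowest value of 0, a median of 1.42 and a highest value of 644 CPM in CC040, and it kept a relative CV of 12.4 without that library. *Myh8*, the perinatal myosin, ranged from 0 through 33.3 to 1001 CPM in CC035, and *Myh1*, a fast glycolytic myosin, from 0 through 20.3 to 706 CPM in the same strain. *Neb*, which encodes the thin filament protein nebulin, ranged from 6.20 through 60.0 to 1088 CPM, and *Ckm*, the creatine kinase of muscle, from 1.47 through 30.01 to 294 CPM. These genes were high in many of the same libraries as *Krt4*. Of the 20 highest libraries for *Krt4*, 18 were also among the 20 highest for *Neb*, 18 for *Myh8* and 16 for *Ckm*, but 8 for *Adipoq* and 8 for *Bpifa1*. All 6 tested skeletal muscle markers of 9 listed were called high, and their summed level was 6.73 to 1945 CPM in lung and at most 9.95 CPM in kidney, but up to 1908 CPM in liver. For the squamous markers the sum was 0.147 to 3880 CPM in lung, at most 27.3 CPM in kidney and up to 863 CPM in liver, so both groups were also abundant in some livers. Of the 50-base windows of the neighbouring paralogs *Myh1*, *Myh2* and *Myh8*, 69.3%, 67.4% and 74.1% occur once in the genome. Since the authors used uniquely aligned reads, these counts cover part of each gene, and their levels relative to each other are uncertain.

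Cardiac muscle genes formed another group. *Myl4*, the atrial light chain of myosin, ranged from 23.3 through 81.8 to 286 CPM in CC028, and no library was at 0. *Nppa*, the atrial natriuretic peptide, ranged from 0.219 through 5.17 to 274 CPM in CC012, with a relative CV of 10.5. *Mybpc3*, the cardiac myosin-binding protein C, ranged from 3.27 through 16.7 to 83.8 CPM in CC030. The 8 tested cardiac markers were all called high, with a summed level of 183 to 1511 CPM. Of the 20 highest libraries for *Krt4*, 8 were among the 20 highest for *Myl4*, and of those for *Neb* 7 were. CC059 had the highest module score, described below, for both the cardiac and the skeletal muscle genes.

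Transcripts best known from fat, liver and kidney made up further groups. *Adipoq*, the hormone adiponectin, ranged from 0.436 through 9.67 to 48.2 CPM in CC059, and *Ucp1*, the uncoupling protein of brown fat, from 0 through 1.02 to 122 CPM in the same strain. The 3 tested adipose markers were called high, and 5 listed markers were under the expression filter. *Alb*, serum albumin, ranged from 1.21 CPM in CC037 through a median of 53.9 to 618 CPM in CC010, with CC015 next at 605 CPM. The lung level of *Alb* was a median of 0.132% of the level in the liver of the same mouse and at most 1.59%. *Kap*, an androgen-regulated protein of the kidney proximal tubule, ranged from 0.607 through 14.5 to 135 CPM in CC001, a median of 0.0842% and at most 0.954% of the kidney of the same mouse. Across strains, *Alb* followed *Apoa1*, a liver apolipoprotein (Pearson's r = 0.973, Spearman's rho = 0.966), and *Kap* followed the renal phosphate transporter *Slc34a1* (r = 0.944, rho = 0.947). All 4 of these coefficients had an adjusted p of 2.33e-05 from 100000 permutations over 14 gene pairs, and with the 2 most distant strains left out r was 0.959 and 0.945. *Alb* did not pass against *Kap* (r = 0.276, adjusted permutation p = 0.0785, rho = 0.0602, adjusted permutation p = 0.739, and r = 0.105 without 2 strains). The modules of these liver and kidney transcripts, described below, shared CC037 as their lowest strain and CC015 and CC010 among their 3 highest. The scores of these modules had r = 0.537 and rho = 0.376 with each other, for which no permutation test was run. Whether these low levels were made in lung tissue was not tested.

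**Figure D2:**
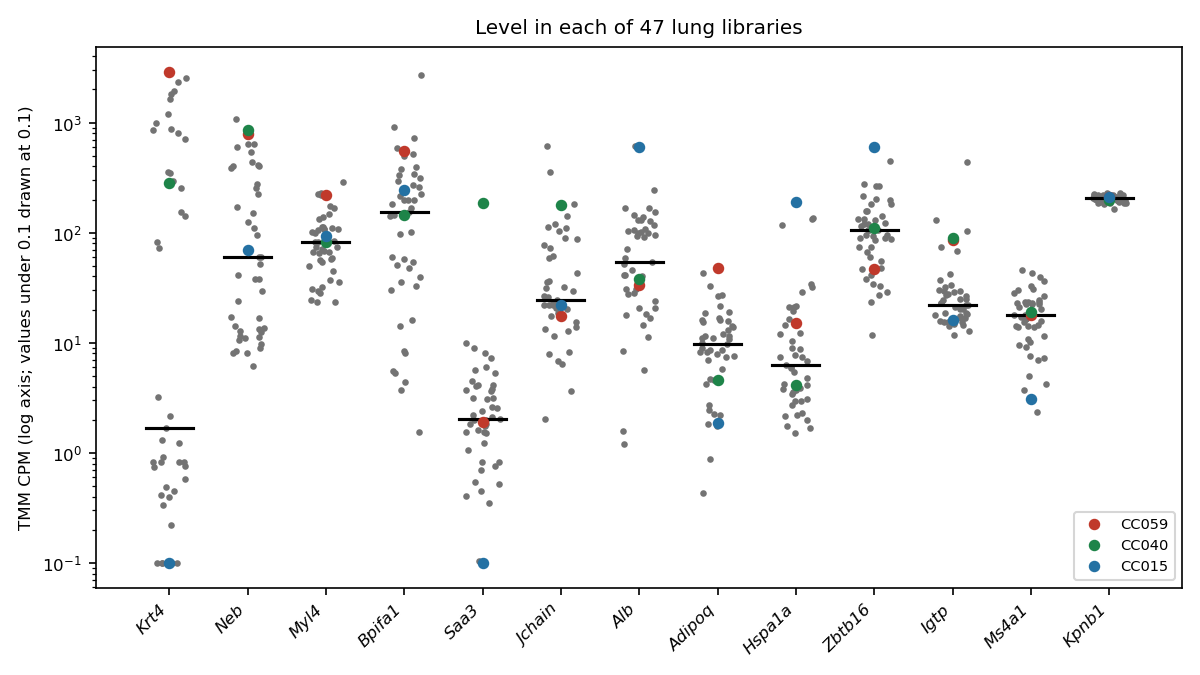
TMM-scaled CPM (vertical axis, log scale, with values under 0.1 drawn at 0.1) in each of 47 lung libraries for 13 genes, with a bar at the median and 3 strains coloured. *Krt4* runs from 0 to 2905 CPM in separate groups, *Saa3* has 1 library at 185 CPM (CC040, green) above a median of 2.03, and *Kpnb1* stays between 166 and 228 CPM.

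Genes of the interferon response formed the most variable group among the immune lists. Type I interferons induce antiviral effectors in most cells, and interferon gamma induces GTPases that attack intracellular parasites together with the antigen presentation machinery. Of 17 tested genes of the type I response 15 were called high, and of 6 tested interferon-gamma GTPases all 6 were. The median relative CVs of these lists were 5.02 and 6.24, against 0.981 over all genes tested. *Igtp*, an immunity-related GTPase, ranged from 11.8 through 22.2 to 441 CPM in CC016, followed by CC068 at 129.9 CPM and CC024 at 103 CPM. *Gm12250*, another GTPase of this family, ranged from 1.26 through 9.76 to 413 CPM in CC016. *Gbp2*, a guanylate-binding protein, ranged from 39.9 through 63.5 to 819.9 CPM in CC016, and its relative CV of 8.25 was 2.07 without that library. The antiviral genes had another leading strain. *Oas3*, a sensor of double-stranded RNA, ranged from 0 through 2.89 to 159.7 CPM in CC040, *Rsad2*, the antiviral protein viperin, from 4.496 through 12.4 to 252 CPM in CC040, and *Oas2* from 0.762 through 7.47 to 153 CPM in CC040. *Isg15*, a ubiquitin-like modifier, rested on CC040 alone, at 84.4 CPM against 6.64 CPM in the next library, with a relative CV of 7.16 with CC040 and 1.17 without it. *Saa3*, an acute phase apolipoprotein, likewise ranged from 0 through 2.03 to 185 CPM in CC040, with the next library at 9.96 CPM, and its relative CV was 13.1 with that library and 2.77 without it.

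The 21 genes of the interferon module (a set of high genes that varied together, as described below) were compared by the sequence before their start sites. Promoters were matched by symbol to RefSeq start sites on GRCm38.p6 for 8979 of the 11872 tested genes and for 13 of the 21. The letters GAAANNGAAA, a core of the interferon-stimulated response element read on both strands, were found in the 250 bases upstream of the start in 9 of those 13 (69.2%) and in 240 of the 8979 (2.67%). They were found in 1 of 75 promoters of the muscle and squamous module, in 0 of 11 of the glucocorticoid module and in 0 of 10 of the heat shock module described below. The letters GAANNTTCNNGAA, a core of the heat shock element, were found in 27 of 8979 (0.301%) and in none of the 10 heat shock module promoters. A match describes these letters only. The upstream sequences of 4 of the 9 genes are shown because *Igtp*, *Irgm1*, *Gbp2* and *Ifit1* carry the match at different distances from the start. They are written 5′ to 3′ on the strand of the gene, with the matched letters or their reverse complement in capitals and the last base next to the start site. *Igtp* is on chr11:58199306-58199555 (plus strand), *Irgm1* on chr11:48871421-48871670 (minus strand), *Gbp2* on chr3:142620413-142620662 (plus strand) and *Ifit1* on chr19:34640639-34640888 (plus strand). In *Irgm1* 2 matches overlap and form the longer capital run, and *Ifit1* holds 2 separate matches.
Igtp: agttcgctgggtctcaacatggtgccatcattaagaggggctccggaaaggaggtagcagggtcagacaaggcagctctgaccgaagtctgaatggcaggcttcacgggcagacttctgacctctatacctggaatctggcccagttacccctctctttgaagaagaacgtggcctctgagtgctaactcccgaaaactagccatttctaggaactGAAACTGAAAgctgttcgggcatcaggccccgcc
Irgm1: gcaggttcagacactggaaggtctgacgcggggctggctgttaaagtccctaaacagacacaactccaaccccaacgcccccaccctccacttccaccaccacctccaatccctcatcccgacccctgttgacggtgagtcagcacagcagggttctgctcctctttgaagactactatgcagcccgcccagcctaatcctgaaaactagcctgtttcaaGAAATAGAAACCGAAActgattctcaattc
Gbp2: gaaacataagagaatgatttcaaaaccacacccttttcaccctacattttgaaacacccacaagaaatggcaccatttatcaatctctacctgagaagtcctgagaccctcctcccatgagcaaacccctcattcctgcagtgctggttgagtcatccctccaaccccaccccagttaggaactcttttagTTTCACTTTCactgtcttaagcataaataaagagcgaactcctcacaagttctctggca
Ifit1: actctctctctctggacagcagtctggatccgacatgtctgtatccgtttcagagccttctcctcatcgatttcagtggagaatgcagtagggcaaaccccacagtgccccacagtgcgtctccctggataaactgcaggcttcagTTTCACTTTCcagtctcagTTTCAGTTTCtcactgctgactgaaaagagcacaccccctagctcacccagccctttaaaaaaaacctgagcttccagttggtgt

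Most tested markers of B cells, plasma cells, neutrophils and alveolar macrophages were called high. Fewer were among T and natural killer cells, given below, and 0 of 2 tested were among mast cells and basophils. All 6 tested B cell markers were high, and *Ms4a1*, the surface antigen CD20, ranged from 2.35 through 17.7 to 45.7 CPM in CC030, the lowest value being in CC021. *Jchain*, which joins secreted immunoglobulin in plasma cells, ranged from 2.03 through 24.6 to 618 CPM in CC030, with CC013 at 352 CPM, and had a relative CV of 10.03. Cytotoxic lymphocyte genes were highest in other strains. *Gzma*, granzyme A, ranged from 1.05 through 9.73 to 67.7 CPM in CC016, and *Ncr1*, an activating receptor of natural killer cells, from 1.17 through 5.44 to 23.6 CPM in CC013. Of the 9 tested T and natural killer cell markers, 4 were high, against 8.99% of all genes tested.

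All 5 tested neutrophil markers were high, as were 5 of 8 of alveolar macrophages. Of those 5 neutrophil markers, 4 fell in the myeloid module described below, and *Ltf*, which airway glands also secrete, fell in the airway secretion module. *S100a8*, a calcium-binding protein that neutrophils carry in bulk, ranged from 1.60 through 10.1 to 130.4 CPM in CC004, with CC040 at 129 CPM. *Chil3*, a chitinase-like protein of alveolar macrophages, ranged from 1.25 through 272 to 2279 CPM in CC025, and its relative CV was 7.16 with that library and 4.51 without it. *Marco*, a scavenger receptor of alveolar macrophages, ranged from 0 in CC037 through 19.3 to 65.0 CPM in the library labelled CC042. *Retnla*, a product of alternatively activated macrophages and a gene of type 2 inflammation, was also highest in CC025, at 364 CPM against a median of 17.6 CPM. Of the MHC genes, 8 of 9 tested for class I and 6 of 10 for class II were high. *H2-K1*, a class I heavy chain, ranged from 72.9 through 324 to 1859 CPM in CC040, and *H2-Aa*, the class II alpha chain, from 68.3 through 276 to 742 CPM in CC016, and both were lowest in the library labelled CC042. *H2-Eb1*, the class II E beta chain, was at most 22.2 CPM in 11 libraries and at least 57.4 CPM in 36.

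The markers of alveolar epithelium and endothelium had lower median relative CVs than the immune cell lists. Those lists ran from 1.51 (mast cells and basophils) to 3.26 (neutrophils), and airway secretory markers, described below, had 2.73. Of 10 alveolar type 2 markers 1 was high, of 8 tested type 1 markers 2 were, and of 10 endothelial markers 2 were. Their median relative CVs were 1.31, 1.49 and 1.41. Over all genes tested the median was 0.981 and 8.99% were high, so these lists were not steadier than genes at large. *Sftpc*, the surfactant protein specific to type 2 cells, ranged from 3467 through 4749 to 8202 CPM with a relative CV of 1.01, and *Scgb1a1*, the club cell secretoglobin, from 4343 through 8881 to 16084 CPM with a relative CV of 1.44. Those 2 genes were named after their values were seen. The exception among type 2 markers was *Sftpb*, surfactant protein B, which ranged from 28.3 in CC033 through 89.5 to 257 CPM in CC037, with a relative CV of 3.21. *Akap5*, an anchoring protein abundant in type 1 cells, ranged from 62.2 in CC068 through 761 to 1210.4 CPM in CC023. *Vwf*, the endothelial clotting factor, ranged from 396 through 725 to 1772 CPM in CC046.

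Airway secretory markers had a median relative CV of 2.73. *Bpifa1*, an antimicrobial surfactant of the upper airway epithelium, ranged from 1.53 CPM in CC006 through 154 to 2677 CPM in CC049, with a relative CV of 10.3. *Ltf*, the iron-binding protein lactoferrin, ranged from 1.67 through 39.4 to 732 CPM, also in CC049. *Reg3g*, a bactericidal lectin, ranged from 0.743 through 13.7 to 171 CPM, again in CC049. These 3 genes shared their highest strain. *Muc5b*, the main mucin of the airway at rest, ranged from 13.8 in CC035 through 175 to 509.8 CPM in CC005. Across strains *Bpifa1* and *Reg3g* followed each other (r = 0.794, rho = 0.722, both with an adjusted permutation p of 2.33e-05, and r = 0.773 without 2 strains), whereas *Bpifa1* and the club cell marker *Scgb1a1* did not pass (r = -0.108, adjusted permutation p = 0.471, rho = -0.106, adjusted permutation p = 0.604, and r = -0.0329 without 2 strains). Of the lists, 5 of 9 tested airway secretory markers and 2 of 7 ciliated markers were high, against 8.99% of all genes tested.

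Part of the tested heat shock genes (5 of 12) and glucocorticoid targets (3 of 8) fell in 2 modules, described below, that were both highest in CC015. Heat shock proteins are chaperones induced by protein damage. *Hspa1a*, the inducible Hsp70, ranged from 1.51 through 6.33 to 189 CPM in CC015, with CC061 at 137 CPM, CC041 at 134 CPM and CC049 at 118 CPM, and all other libraries were at or below 34.1 CPM. Its twin *Hspa1b* ranged from 1.98 through 7.28 to 181 CPM. Only 39.0% and 37.7% of the 50-base windows of these paralogs are unique, so uniquely aligned reads cover part of each and their relative levels are uncertain. *Hsph1*, a cochaperone of Hsp70 with fully unique windows, ranged from 18.9 through 45.97 to 330.3 CPM in CC015 and was next highest in CC041. Of 12 heat shock genes 9 were high. Glucocorticoid targets were high in 7 of 8 tested genes. *Zbtb16*, a transcription factor strongly induced by glucocorticoids, ranged from 11.8 in CC033 through 105 to 595 CPM in CC015. *Fkbp5*, a feedback inhibitor of the receptor, ranged from 12.0 through 24.01 to 165 CPM, and it followed *Zbtb16* across strains (r = 0.780, rho = 0.754, both with an adjusted permutation p of 2.33e-05, and r = 0.729 without 2 strains). Immediate-early genes, which cells induce within minutes of a stimulus, were high in 9 of 13 tested genes, and *Fos* ranged from 23.02 through 40.3 to 120.1 CPM. *Hspa1a* and *Fos* did not follow each other (r = 0.121, adjusted permutation p = 0.454, rho = 0.0178, adjusted permutation p = 0.906, and r = 0.0879 without 2 strains). Of 13 tested clock genes 5 were high, against 8.99% of all genes tested. *Dbp*, an output gene of the clock, had a median of 28.9 CPM and a highest value of 114 CPM in CC037. Its lowest value, 1.87 CPM in CC015, was at the floor of 3 counts in that library.

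Stromal genes were intermediate. *Col1a1*, the chain of type I collagen, ranged from 39.9 in CC033 through 117 to 429.5 CPM in CC037. *Eln*, elastin, ranged from 39.2 in CC033 through 91.6 to 196 CPM in CC036. Of 12 matrix genes 7 were high, against 8.99% of all genes tested. *Cnn1*, the smooth muscle calponin, ranged from 21.6 through 41.1 to 245 CPM in CC049. Leaving that strain out lowered its relative CV from 4.07 to 2.47. *Acta2*, smooth muscle actin, was highest in the same strain, at 564 CPM against a median of 188 CPM, and 5 of 8 smooth muscle markers were high.

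The genes whose level was most constant between strains, for their mean, were led by the following. *Trio*, a guanine nucleotide exchange factor, ranged from 159.7 to 195 CPM around a median of 178 CPM, with a CV of 0.0571 and a relative CV of 0.364, the smallest among genes of at least 20 CPM. *Kpnb1*, the importin beta of nuclear transport, ranged from 166 to 228 CPM with a relative CV of 0.397. *Dync1h1*, the heavy chain of dynein, ranged from 1003 to 1391 CPM with a relative CV of 0.420. The X-linked histone demethylase *Kdm5c* (126 to 165 CPM) and ubiquitin ligase *Huwe1* (556 to 891 CPM), and *Sec16a* (161 to 235 CPM), which organizes sites of export from the endoplasmic reticulum, were also among the 10 most constant genes. None of the 12 tested subunits of the translation factor eIF3 and none of 34 proteasome subunits were high, and 0 and 3 were low. Of all genes 8.99% were high and 8.79% low. The proteasome list left out *Psmb8*, *Psmb9* and *Psmb10* beforehand, and *Psmb8* and *Psmb9* were high (relative CV 2.73 and 2.71). *Psmd4*, which was on the list, was a two-level gene as defined below, at most 0.290 CPM in 7 strains. Cytosolic ribosomal protein genes were high in 5 of 66, a share near that of all genes. The 3 most variable were *Rps23* (relative CV 4.81), *Rpl37* (4.31) and *Rpl21* (2.86). Of their 50-base windows 8.26%, 76.0% and 81.8% are unique, so that uniquely aligned reads cover only part of each gene. Zinc finger genes named Zfp included 11 high and 18 low members of 263 tested, and *Zfp979* ranged from 0 through 6.55 to 69.6 CPM.

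A small set of genes took 1 of 2 separate levels. A split into lower and higher libraries was called where it held at least 85% of the variance of log2 CPM, left at least 5 libraries on each side and separated the group means by at least 2 log2 units, which was met by 39 genes (0.329% of those tested). *Baiap2l1*, an adaptor of the actin cytoskeleton on chromosome 5, was at most 64.9 CPM in 39 libraries (median 43.2 CPM) and at least 225 CPM in 8 (median 298 CPM), namely CC015, CC027, CC028, CC030, CC033, CC037, CC044 and CC061. In kidney those same 8 strains had a median of 18.5 CPM against 17.9 CPM in the others. *Pon2*, a lactonase that limits oxidative damage, on chromosome 6, was at most 25.6 CPM in 6 strains, CC015, CC016, CC025, CC035, CC044 and CC055, and at least 63.9 CPM in 41. In those 6 strains it was at most 9.85 CPM in kidney and at most 6.18 CPM in liver, against at least 15.3 and 29.3 CPM in the rest, so that this split held in all 3 organs.

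Other splits were complete at this depth. *Srp54c*, a signal recognition particle subunit of which 8.60% of 50-base windows are unique, was at most 0.0803 CPM in 5 strains (CC011, CC024, CC035, CC044, CC068) and at least 3.44 CPM in 42. *9930111J21Rik1* and *Psme2b* were low in the same 7 strains (CC023, CC024, CC031, CC039, CC044, CC061, CC068), the former at most 0.556 CPM there and at least 26.0 CPM elsewhere, with 20.1% of its windows unique. *BC018473* and *St6galnac1*, a sialyltransferase, overlap on opposite strands of chromosome 11 and were low in the same 23 strains. For *BC018473* the lower strains were at most 0.821 CPM and the higher at least 34.8 CPM, and reads of such overlapping genes may not be told apart. *H60b* and *C920009B18Rik* were low in the same 8 strains, among them CC036 and the library labelled CC042, whose lung resembled the kidney of CC036 above, and these 2 genes were chosen after their values were seen. Of the 15 two-level genes expressed in kidney, 5 had the same strains without overlap there, and of 14 expressed in liver 3 did. No such share was computed for other genes, so these counts have no background to be read against. They include the lung labelled CC042 and, for liver, the livers labelled CC030 and CC032. Among the 29 two-level genes with sequence data, too few of the 39 for a comparison, 34.5% had fewer than 80% of their 50-base windows unique; the share was 6.35% over all tested genes and 9.75% over the high genes. The part of shared sequence in these levels was not tested.

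**Figure D3:**
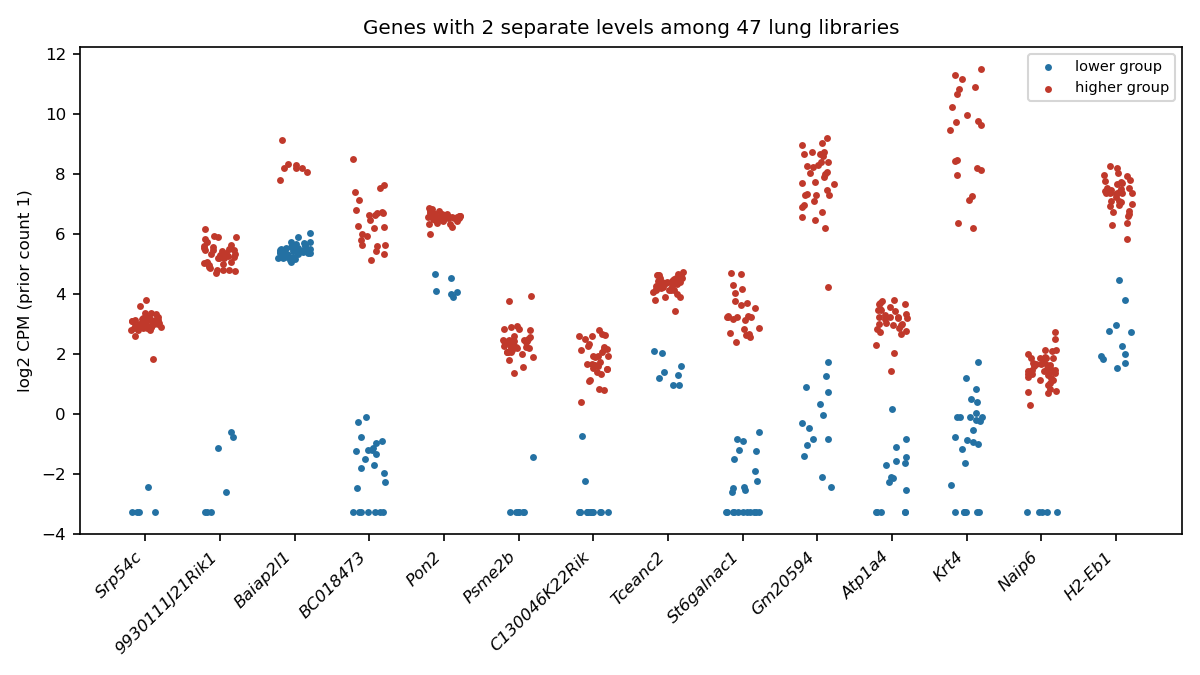
log2 CPM (vertical axis, prior count 1) of the 14 genes with the clearest division into 2 levels, with 1 point per lung library, blue for the lower and red for the higher group. *Baiap2l1* has 8 libraries in the higher group and *Pon2* has 6 in the lower group. The groups are cut from the same sorted values, so they cannot overlap.

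Co-variation was described by clustering the 955 high genes with a mean of at least 3 CPM on the Spearman correlation of their log2 CPM across strains. Average linkage with a limit of 0.5 gave 28 modules of at least 5 genes, which held 477 genes (49.9%). A module's score in a library is the mean log2 difference of its genes from their averages over libraries. The largest module had 108 genes, led by *Pygm* (glycogen phosphorylase of muscle), *Mybpc2*, *Apobec2*, *Neb* and *Ckm*, and it joined all 6 skeletal muscle markers with all 3 squamous markers. Its score ranged from -1.69 in CC020 to 2.57 in CC059, and 101 of its genes stayed high without their own highest library. Another module held all 8 cardiac markers among its 30 genes, led by *Myl4* and *Tnni3*, and ranged from -1.62 in CC029 to 1.61 in CC059. Liver transcripts such as *Cps1*, the first enzyme of the urea cycle, and *Alb* formed a module of 27 genes, highest in CC010 (3.51) and CC015 (3.30), and kidney transcripts such as *Cyp2j5* and *Kap* one of 8 genes, highest in CC015 (2.54) and CC001 (2.42). Both were lowest in CC037, at -3.01 and -3.13.

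Immune genes separated into several modules. A module of 38 genes led by *Myo1f*, *Tnfrsf1b* and *Fgr*, named the myeloid module here for its 4 of 5 neutrophil markers, was highest in CC040 (1.82) and lowest in CC015 (-1.68). The interferon module of 21 genes, led by *Irgm1* and *Gbp6* (14.6% of whose windows are unique), was highest in CC040 (2.37) and CC016 (2.29), while CC024 followed at 1.04. B cell genes formed 1 module of 17 genes that held all 6 tested markers and was lowest in CC015 (-2.63) and CC021 (-1.91) and highest in CC030 (1.41). Cytotoxic genes led by *Prf1*, the pore-forming protein perforin, formed one of 8, highest in CC016 (2.33). The complement genes *C1qa*, *C1qb* and *C1qc*, made by tissue macrophages, led one of 7, highest in CC040 (2.15) and CC068 (1.67). Airway secretions formed a module of 11 genes led by *Reg3g*, *Muc5b* and *Bpifa1*, all 11 of which stayed high without their highest library, and its score ranged from -2.85 in CC035 to 2.43 in CC049.

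Response genes gave a module of 13 genes led by *Hsph1*, 5 of them on the heat shock list, highest in CC015 (1.82) and CC041 (1.74). Another of 14 genes, led by *Zbtb16* and *Klf15*, was highest in CC015 (1.25) and lowest in CC045 (-0.99). It is named the glucocorticoid module here for 3 of the 8 tested genes of that list, and 1 other fell in the cardiac module. *Egr1*, *Nr4a1* and *Fos* led the module of 5 immediate-early genes. Collagen and elastin genes led one of 8, adipose genes one of 11 with CC059 highest at 2.82, and dynein genes of motile cilia such as *Dnah9* and *Dnah5* led one of 12. In some modules few genes stayed high without their own highest library, namely 1 of the 29 genes led by *Cic* and *Scaf1*, 2 of the 10 led by *Slc9a3r2* and *Rasip1* and 0 of the 5 led by *Synpo2* and *Dio2*. Their highest scores were in CC037 (1.72 and 1.95) and, for the last, in CC049 (1.65). Without CC015 and CC037, 25 of the 29 genes led by *Cic* were still in 1 module, as were 5 of the 10 led by *Slc9a3r2* and 2 of the 5 led by *Synpo2*. With a fit on log2 effective library size removed, these counts were 14, 6 and 5. Without libraries over 50% *Rn45s* and *Lars2* they were 14, 10 and 3. A module of 28 genes of mixed function led by *Kdm6b* and *Setd1b*, both histone-modifying enzymes, was the only 1 of 28 whose score followed the share of *Rn45s* and *Lars2* (r = 0.494, adjusted permutation p = 0.0179, rho = 0.513, adjusted permutation p = 0.0151, and r = 0.413 without 2 strains) among 56 tests of share and depth.

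**Figure D4:**
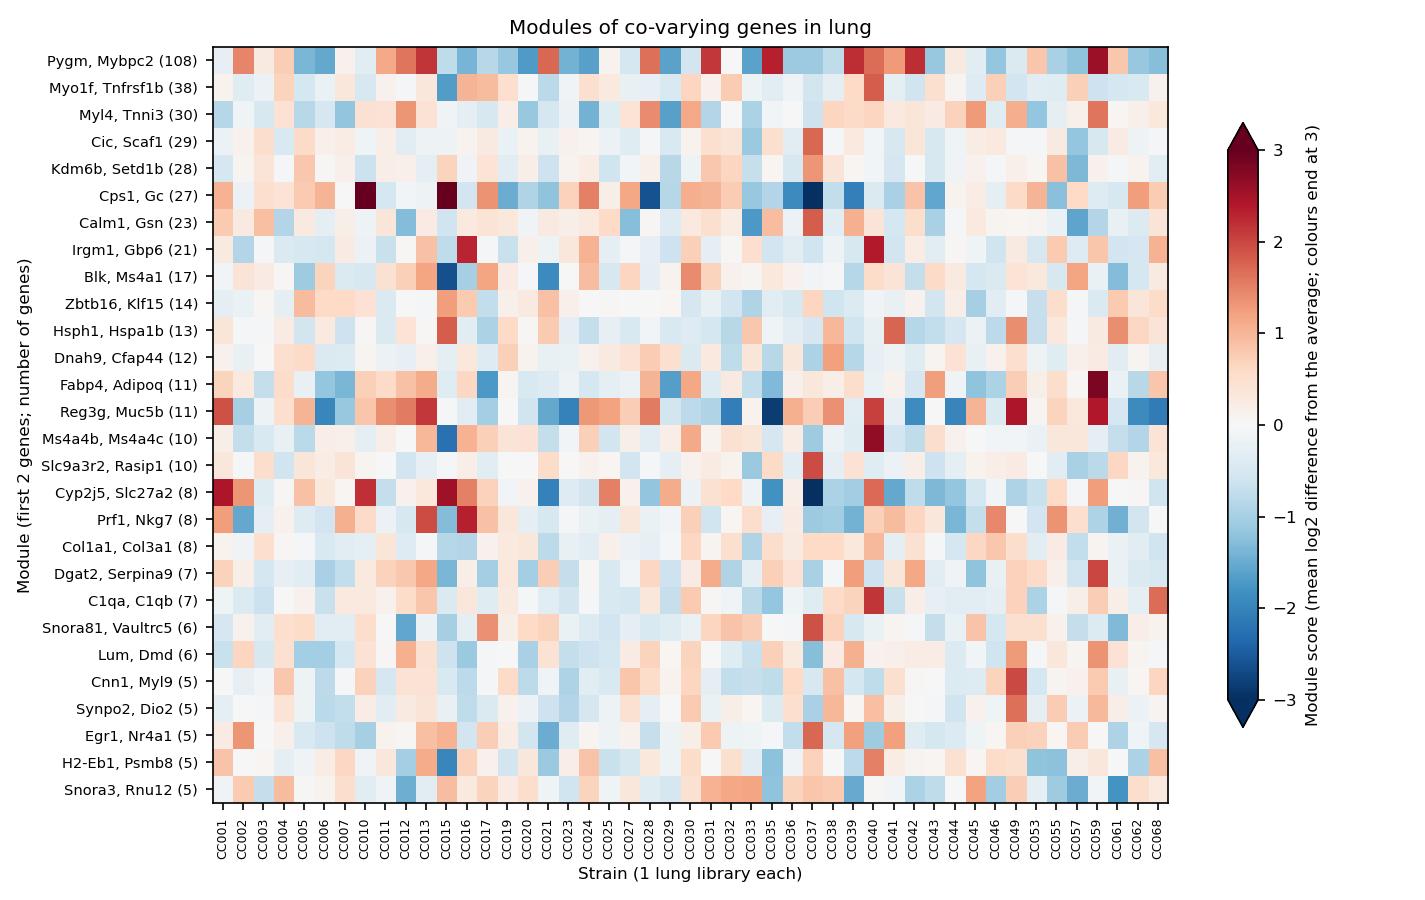
Module scores (colour, mean log2 difference from the average, colours end at 3) of the 28 modules (rows, named by 2 leading genes with the number of genes) in the 47 lung libraries (columns, by labelled strain). The muscle and squamous module alternates between strains across the panel, whereas the interferon module is dominated by CC016 (2.29) and CC040 (2.37).

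Neighbouring high genes varied together more often than distant ones. Among 217 pairs of high genes within 100 kb of each other, 30.9% had a Spearman correlation of at least 0.5 (median 0.290), against 3.14% of pairs on different chromosomes (median 0.0147). Examples were chosen by their correlation, from the 11 of these pairs with the largest values. They were *Hspa1a* with *Hspa1b* (0.935), *C1qa* with *C1qc* (0.913), *BC018473* with *St6galnac1* (0.910), *Krt4* with *Krt78* (0.899) and *Gm12250* with *Igtp* (0.836). Both *Hspa1a* with *Hspa1b* and *BC018473* with *St6galnac1* share sequence or position, as given above.

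The lists, each scored by the mean of its genes on a log2 scale, were compared in all 702 pairs, and 29 passed an adjusted permutation p of 0.05 for both coefficients, 25 of them positive. Type I interferon genes followed the interferon-gamma GTPases (r = 0.742, adjusted p = 0.000702, rho = 0.850, adjusted p = 0.001, permutation tests, and r = 0.822 without the 2 farthest strains). B cell markers followed MHC class II (r = 0.697, rho = 0.594, adjusted permutation p = 0.000702 and 0.00263, and r = 0.527 without 2 strains). Type 1 alveolar markers followed endothelium (r = 0.602, rho = 0.546, adjusted permutation p = 0.00191 and 0.00648, and r = 0.445 without 2 strains), and secretory followed ciliated airway markers (r = 0.5001, rho = 0.468, adjusted permutation p = 0.0107 and 0.0319, and r = 0.421 without 2 strains). In the opposite direction, matrix genes were lower where Zfp genes were higher (r = -0.558, rho = -0.620, adjusted permutation p = 0.00234 and 0.001, and r = -0.540 without 2 strains). Skeletal muscle and squamous lists fell into separate clusters of strains, so the value of their pooled correlation is not given. Of these 702 pairs, 27 passed without the library labelled CC042 and 9 without the 15 libraries in which *Rn45s* and *Lars2* held over 50% of the counts.

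Kidney and liver of the same mice were then used to ask which lung differences were shared across organs. Of 457 correlations of a named gene, list or module between lung and another organ, 128 passed for both coefficients, and all 128 were positive. The module led by *Zbtb16* and *Klf15* had r = 0.839 with its genes in kidney and 0.777 in liver (rho = 0.800 and 0.740), the heat shock module 0.826 and 0.794 (rho = 0.687 and 0.644), the interferon module 0.805 and 0.747 (rho = 0.806 and 0.752), and the module of *H2-Eb1* and *Psmb8* 0.798 and 0.700 (rho = 0.829 and 0.752). All of these had an adjusted permutation p of 7.37e-05 for r and 8.96e-05 for rho, the smallest that 100000 permutations can give in this family, and r without the 2 farthest strains lay between 0.711 and 0.806. Strains with high scores of these 4 modules in lung tended to have high scores in the other organs of the same mouse. Without the 15 libraries high in *Rn45s* and *Lars2* the interferon module had 0.651 in kidney and 0.431 in liver.

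Single genes gave the same division. *Zbtb16*, with a median of 105 CPM in lung, 9.07 CPM in kidney and 19.6 CPM in liver, had r = 0.883 and rho = 0.894 with kidney (adjusted permutation p = 7.37e-05 and 8.96e-05, and r = 0.853 without 2 strains). *Per2*, a repressor of the clock that glucocorticoids also induce, had r = 0.848 and rho = 0.784 with the same adjusted permutation p (0.811 without 2 strains). *Rpl37*, the ribosomal protein gene named above, had r = 0.968 with kidney and 0.964 with liver (rho = 0.923 and 0.892, the same adjusted permutation p, and 0.957 and 0.952 without 2 strains). The module of *Cps1* and *Alb* did not pass between lung and liver (r = 0.0725, rho = -0.0500, adjusted permutation p = 0.775 and 0.857, and r = -0.126 without 2 strains), nor did *Alb* itself, with r = -0.0251 and rho = 0.0186 (adjusted permutation p = 0.927 and 0.952, and r = -0.0390 without 2 strains). *Kap* in lung against kidney had r = 0.116 and rho = 0.198 (adjusted permutation p = 0.632 and 0.352, and r = 0.121 without 2 strains). The cardiac module did not pass in kidney (r = 0.0442, rho = 0.0200, adjusted permutation p = 0.866 and 0.947, and r = 0.0693 without 2 strains), nor did the airway secretion module (r = 0.215, rho = 0.220, adjusted permutation p = 0.296 and 0.290, and r = 0.160 without 2 strains). Without the mice of the libraries that went against their labels 136 of 457 passed.

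**Figure D5:**
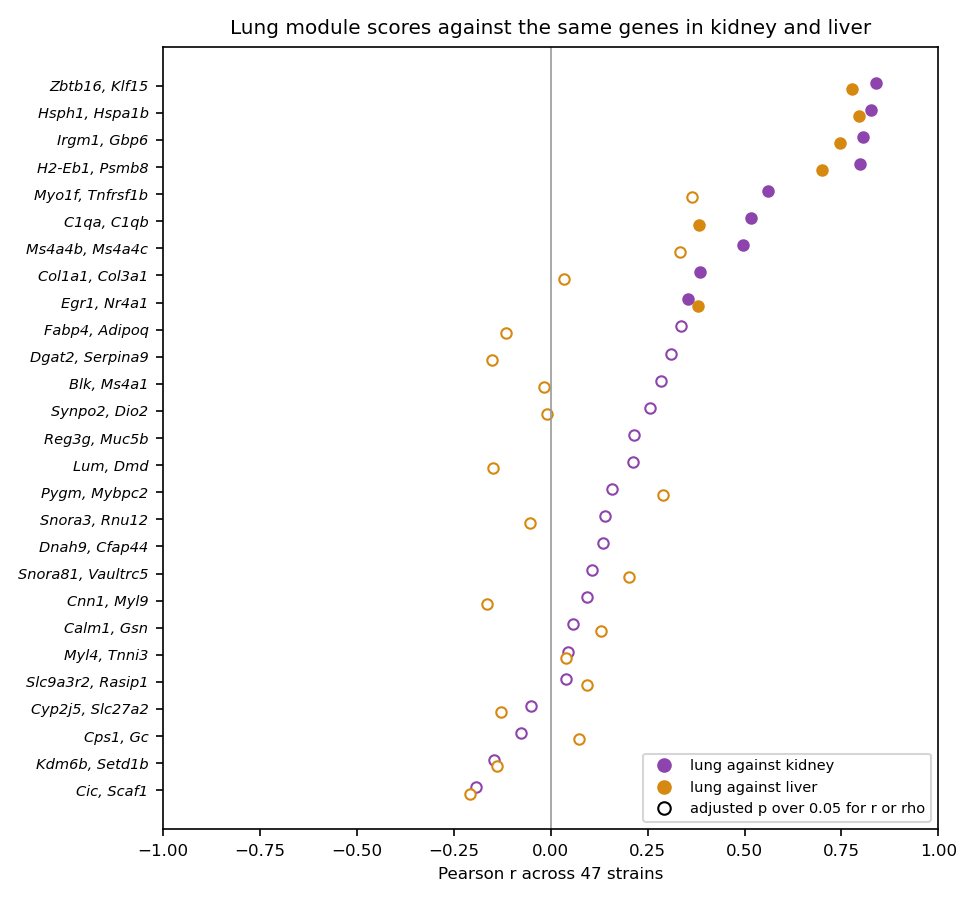
Pearson's r across 47 strains between a lung module's score and the score of the same genes in kidney (purple) or liver (orange), for the modules with enough expressed genes, named by 2 leading genes. Filled points passed the adjusted permutation test for both r and rho, with the *Zbtb16* module at the top (0.839 and 0.777) and the *Cic* module at the bottom (-0.192 and -0.209).

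Finally, the spread between strains was compared between organs, to ask for which genes it was larger in lung. For each gene, a library's absolute deviation from the median log2 CPM was divided by the deviation typical of a gene of that level in that organ, and these relative deviations were compared within strains by limma with Benjamini-Hochberg adjustment. Among 9736 genes tested in lung and kidney, 408 had a larger relative deviation in lung (4.19%) and 480 in kidney (4.93%). Against liver, of 8296 genes 418 were larger in lung (5.04%) and 597 in liver (7.2%). The choice of scale mattered, since without division by the typical deviation the counts were 255 and 768 for kidney and 228 and 2029 for liver.

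*Neb* had the smallest adjusted p in both tests. It ranged from 6.20 through 60.0 to 1088 CPM in lung and from 1.40 through 3.47 to 8.65 CPM in kidney, with a relative deviation larger by 11.1 ± 0.890 (SE, n = 47) in lung and in 44 of 47 strains (limma adjusted p = 1.23e-12). *Ttn*, which encodes titin, ranged from 42.4 through 300.4 to 2180 CPM in lung and from 1.66 through 5.68 to 15.9 CPM in kidney, a difference of 5.81 ± 0.713 (SE; limma adjusted p = 1.85e-07). Against liver the relative deviation of *Ttn* was 7.17 in lung and 9.58 in liver, a difference of -2.41 ± 1.152 that did not pass (limma adjusted p = 0.186). *Armcx4*, an X-linked armadillo repeat gene, ranged from 46.6 through 101.2 to 205 CPM in lung and from 4.36 through 9.11 to 21.6 CPM in kidney, with a difference of 2.47 ± 0.276 in 43 of 47 strains (limma adjusted p = 1.46e-08). *H2-T24*, a nonclassical MHC gene, and *Avpr1a*, a vasopressin receptor, also had larger relative deviations in lung, by 2.01 ± 0.253 and 3.11 ± 0.418 (limma adjusted p = 2.12e-07 and 1.11e-06). Against liver, *Lyz1*, a lysozyme of myeloid and secretory cells, ranged from 113 through 470.4 to 1388 CPM in lung and from 0.506 through 1.55 to 24.97 CPM in liver (difference 3.25 ± 0.441, limma adjusted p = 8.99e-07). *Alb* and *Apob* were abundant and even in liver, *Alb* from 20811 to 90950.1 CPM, and their relative deviations in lung were larger by 6.89 ± 0.954 and 5.38 ± 0.699 (limma adjusted p = 1.52e-06 and 4.27e-07).

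Other genes were steadier in lung. *Aldh1a1*, a retinaldehyde dehydrogenase, ranged from 433 through 1097 to 2022 CPM in lung but from 7.54 through 95.01 to 914 CPM in kidney, and its relative deviation was larger in lung in 5 of 47 strains (difference -7.88 ± 0.913, limma adjusted p = 4.37e-08). *Bcl6*, a transcriptional repressor, ranged from 31.2 through 43.7 to 76.1 CPM in lung and from 5.48 through 32.8 to 118 CPM in kidney (difference -4.05 ± 0.461, limma adjusted p = 2.29e-08). *Prlr*, the prolactin receptor, *Evc*, a protein of the primary cilium, and *Vwa1*, a matrix protein, were the other genes with the smallest adjusted p in that direction. Against liver, *Rgs16*, a regulator of G protein signalling, ranged from 0.310 through 1.52 to 3.58 CPM in lung and from 6.76 through 63.9 to 407 CPM in liver (difference -5.15 ± 0.597, limma adjusted p = 3.91e-08). *Lpin1*, a phosphatidate phosphatase of lipid synthesis, ranged from 0.912 through 2.25 to 5.21 CPM in lung and from 0.948 through 6.84 to 65.5 CPM in liver (difference -3.27 ± 0.353, limma adjusted p = 5.23e-09). *Dhtkd1*, *Fam84b* and *1600002H07Rik* completed that direction. In lung, *Rgs16* and *Lpin1* were near the floor of 3 counts (0.108 to 1.87 CPM), so counting error limits these comparisons.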

How the data were processed

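RNA-seq libraries of lung, kidney and liver from 47 mice, 1 per CC strain, were used, with samples grouped by the tissue label. Per the labels and the study's methods, the authors filtered reads of 50 bases on quality and adapters, aligned them with STAR 2.5.3a under RSEM to strain-specific pseudo-genomes built on mm9 with RefSeq genes, and used uniquely aligned reads. The deposited expected counts of RSEM were used after rounding (6 values in the lung tables were not whole). The deposited TPM served in alternatives, and the FPKM columns deposited by the authors were not used. No per-sample column was left unmapped (0).

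Counts were scaled by TMM in edgeR 4.0.16 (R 4.3.3). Genes over 1 CPM in at least 24 of 47 libraries were kept. Relative CV was the CV over a lowess trend of span 0.2. log2 CPM used a prior count of 1. Spread was compared with limma 3.58.1 on relative absolute deviations, with the mouse as a block because both organs came from 1 animal, at an adjusted p of at most 0.05. Correlations used 100000 two-sided permutations, for which the smallest p is 1e-05, and Benjamini-Hochberg adjustment within 702 pairs of lists, 457 values between organs, 56 of modules with depth and 14 pairs of genes, in Python 3.11.15 with numpy 2.4.6, scipy 1.17.1, pandas 2.3.3, numba 0.67.0 and matplotlib 3.10.9. DESeq2 1.42.0 size factors, total counts, other filters, scales, spans and left-out libraries were alternatives. Scripts were tested on simulated data. The p-values measure only the spread between these samples.

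Named genes were the 15 largest relative CVs at a mean of at least 5 CPM, the 10 largest robust CVs relative to trend, the 10 smallest at a mean of at least 20 CPM, the 3 most variable members of each list, the 5 genes closest to each module's mean, the 10 clearest two-level genes, and the 5 smallest adjusted p in each direction of the spread tests. The genes examined and the lists were chosen with earlier results of these data known. Uniqueness of 50-base windows and gene positions came from mm9, the authors' build, with GENCODE genes. Promoter sequences came from RefSeq on GRCm38.p6, which is not the authors' build, and no position was carried between these builds. A named gene is not reported here.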

Additional observations from a re-analysis of the deposited data

How the results depend on the processing

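The 1067 high genes became 321 with total counts, 1645 with no low-count filter and 701 without each gene's highest library. The 1043 low genes became 0 with total counts and 1647 without each gene's highest library, both being counts with no test. The 39 two-level genes became 14 with total counts, 131 with no filter and 10 among genes over 1 CPM in all 47 libraries. Genes whose spread differed from kidney (888) became 484 over 5 CPM in both organs, 131 on log2(TPM + 1) and 362 without libraries over 50% *Rn45s* and *Lars2*. For liver (1015) these were 558, 235 and 529, and 2257 with the deviation not divided by the trend. On log2(TPM + 1) the counts larger in lung and in the other organ were 40 and 91 for kidney and 40 and 195 for liver. With no replicate block, so unpaired by mouse, they were 763 for kidney and 871 for liver. The 29 called pairs of lists became 602 with total counts and 9 without libraries over 50% *Rn45s* and *Lars2*, and the 128 called values between organs became 27 and 69. The sign turned for the lung and liver correlations, with total counts, of *Dync1h1* (-0.0110), *Dtx3l* (-0.0675), *Slc5a3* (-0.0646), *Ms4a6c* (-0.0713) and the circadian clock list (-0.00545), and *Pon2* moved to a relative value of 0.537 with the robust CV. The cause was not tested in these cases, although leaving libraries out also leaves fewer samples. Counts of high, low and two-level genes and of the spread tests stayed within 1.5 times under DESeq2 size factors, with which the correlations were not run, and all of these counts did without CC015 and CC037. Leaving out the highest library took 52 of 272 named genes across a threshold. Of the 21 interferon module genes 10 stayed in 1 module with Pearson correlation and 9 without libraries over 50% *Rn45s* and *Lars2*. Alternatives that leave out libraries were chosen after seeing the data. Depth limits low genes, since 3 counts equal up to 1.87 CPM.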
